A study of Mus musculus with 6 samples.

Results

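The genes described here are 40 interferon-stimulated and antigen processing genes, taken by name from a table of 25904 genes measured in mouse liver. Each of the 40 names matched 1 row, and all 40 had enough reads to be tested among 14606 genes. They were divided by textbook knowledge into 27 targets of the type I interferon pathway and 13 targets of the interferon-gamma type, although many of them answer to either signal.

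Polyadenylated RNA was sequenced from 3 liver samples of Ptprd+/- mice (heterozygous, called Het) and 3 of Ptprd+/+ mice (wild type, called WT), all of the inbred strain C57BL/6J. Ptprd encodes a receptor-type tyrosine phosphatase, and the study sets livers with 1 intact copy against livers with both. The sources used here give neither the kind of altered allele nor the age, sex or treatment of the mice. The labels count 3 liver samples per genotype without naming the mice, and p-values measure only the spread between these samples, which may be technical if any shared a mouse.

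Type I interferons bind the receptor pair IFNAR1 and IFNAR2, and the kinases JAK1 and TYK2 then activate a complex with STAT2 and IRF9 that binds the interferon-stimulated response element (ISRE). Interferon-gamma, made mainly by T cells and natural killer cells, acts through IFNGR1, IFNGR2, JAK1 and JAK2 on genes that hold a gamma-activated site (GAS), and through IRF1 induced in turn. In liver the type I programme is known for antiviral defence in hepatocytes and Kupffer cells, and the gamma programme for raising antigen presentation and for drawing in T cells.

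The ISRE and the GAS are short sequence motifs, so a few stretches upstream of start sites that hold their cores are printed. The 250 bases before each start site were searched on both strands for GAAANNGAA, the core of the ISRE, and for TTCNNNGAA, the core of the GAS. Promoters from RefSeq (GRCm38.p6) matched 31 of the 40 genes. The ISRE core was found in 10 of 20 type I genes (50%) and 8 of 11 gamma genes (72.7%), beside 8.18% of all 27025 genes of the promoter table. The GAS core was found in 3 of 20 type I genes (15%) and 4 of 11 gamma genes (36.4%), beside 8.13% of all genes. A match is a description of the letters and does not show binding. Capitals mark the cores, which overlap one another in Isg15, Oas3 and Ifit1. The coordinates are GRCm38, and each sequence reads 5′ to 3′ on the strand of its gene.
Isg15 (chr4:156200851-156200921, minus strand): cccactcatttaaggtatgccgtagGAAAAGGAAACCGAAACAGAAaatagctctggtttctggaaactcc
Oas3 (chr5:120777695-120777759, minus strand): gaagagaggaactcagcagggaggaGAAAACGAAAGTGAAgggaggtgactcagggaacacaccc
Ifit1 (chr19:34640755-34640838, plus strand): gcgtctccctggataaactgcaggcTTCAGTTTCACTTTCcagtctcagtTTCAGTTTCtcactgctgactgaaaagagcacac
Irf1 (chr11:53769899-53769957, plus strand): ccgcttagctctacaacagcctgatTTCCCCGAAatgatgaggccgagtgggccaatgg
Igtp (chr11:58199486-58199555, plus strand): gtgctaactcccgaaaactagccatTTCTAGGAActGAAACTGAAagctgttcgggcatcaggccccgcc
Gbp7 (chr3:142530205-142530317, plus strand): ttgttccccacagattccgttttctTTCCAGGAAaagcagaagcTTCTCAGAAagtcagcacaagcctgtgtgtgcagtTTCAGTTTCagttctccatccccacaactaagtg
Cxcl10 (chr5:92349069-92349127, minus strand): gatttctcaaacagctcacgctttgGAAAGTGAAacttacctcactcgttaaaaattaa
B2m (chr2:122147523-122147581, plus strand): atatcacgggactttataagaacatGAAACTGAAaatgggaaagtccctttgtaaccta
Of the 7 type I genes with an edgeR unadjusted p under 0.05 between genotypes, Isg15 and Oas3 are shown as the 2 in which a core was found. The others, Usp18, Oas2, Oasl2, Irf9 and Ifi35, held neither core in these bases or had no matched promoter. Ifit1 is shown because it is a standard target of the type I class. Isg15, Oas3 and Ifit1 hold ISRE cores alone. Irf1 holds a GAS core alone, Igtp and Gbp7 hold both kinds, and Cxcl10 and B2m hold an ISRE core although they were placed in the gamma class.

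Total counts lay between 38918379 and 72954187 per Het library and between 37924266 and 48526395 per WT library. Het 3 was the deepest library and Het 1, at 38918379 counts, was shallower than all but WT 3. Levels are given in CPM, the counts of a gene per 1000000 counts of the effective library size. Ptprd (chr4:75941238-78211961) had 54.1, 78.0 and 63.4 CPM in Het 1, Het 2 and Het 3, against 128, 127 and 132 CPM in WT 1, WT 2 and WT 3, so each library's level matched its genotype label. Its log2 fold change of Het over WT was -0.99 (SE 0.14, edgeR adjusted p = 0.298, DESeq2 adjusted p = 2.23e-06). Het 2 and Het 3 stood apart from the other libraries in Dbp, an output gene of the circadian clock, at 129 and 122 CPM, against 13.5 CPM in Het 1 and 14.4 to 29.6 CPM in WT. Among the 40 genes described here it was Het 1 that stood apart.

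Het 1 had the highest level of the 6 libraries in 35 of the 40 genes (87.5%), beside 22.9% of all tested genes. It lay above all 3 WT libraries in those 35 genes, beside 31.5% of all tested genes. Het 2 lay above all WT libraries in 11 of 40, beside 26.5% of all tested genes, and Het 3 in 8 of 40, beside 27.5%. In the type I class these numbers were 24, 10 and 8 of 27 for Het 1, Het 2 and Het 3, and in the gamma class 11, 1 and 0 of 13. At the low end WT 3 had the lowest level in 22 of the 40 (55%), beside 13.2% of all tested genes. The 5 genes that did not peak in Het 1 were Irf1, Ifih1 and Gbp7, highest in WT 2, Ddx58, highest in Het 2, and Trim25, highest in WT 3. The sum of 13 markers of T and NK cells, of which 10 were tested, was also highest in Het 1, at 9.98, 3.94 and 5.78 CPM in Het 1, Het 2 and Het 3, against 5.45, 7.38 and 6.07 CPM in WT 1, WT 2 and WT 3. Het 1 was the highest library for 6 of the 10, beside 22.9% of all tested genes. The log2 fold change was above 0 in 7 of the 10 and below 0 in Cd4, Nkg7 and Gzmb. Gzmb had 0.521, 0.404 and 0.349 CPM in Het, against 0.868, 0.801 and 0.615 CPM in WT. Every Het library thus lay below every WT library for Gzmb, beside 6.72% of all tested genes. The part of these markers in the levels of the interferon genes was not tested. In bulk tissue more or fewer cells of a type cannot be told apart from more or less RNA per cell.

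**Figure D1:**
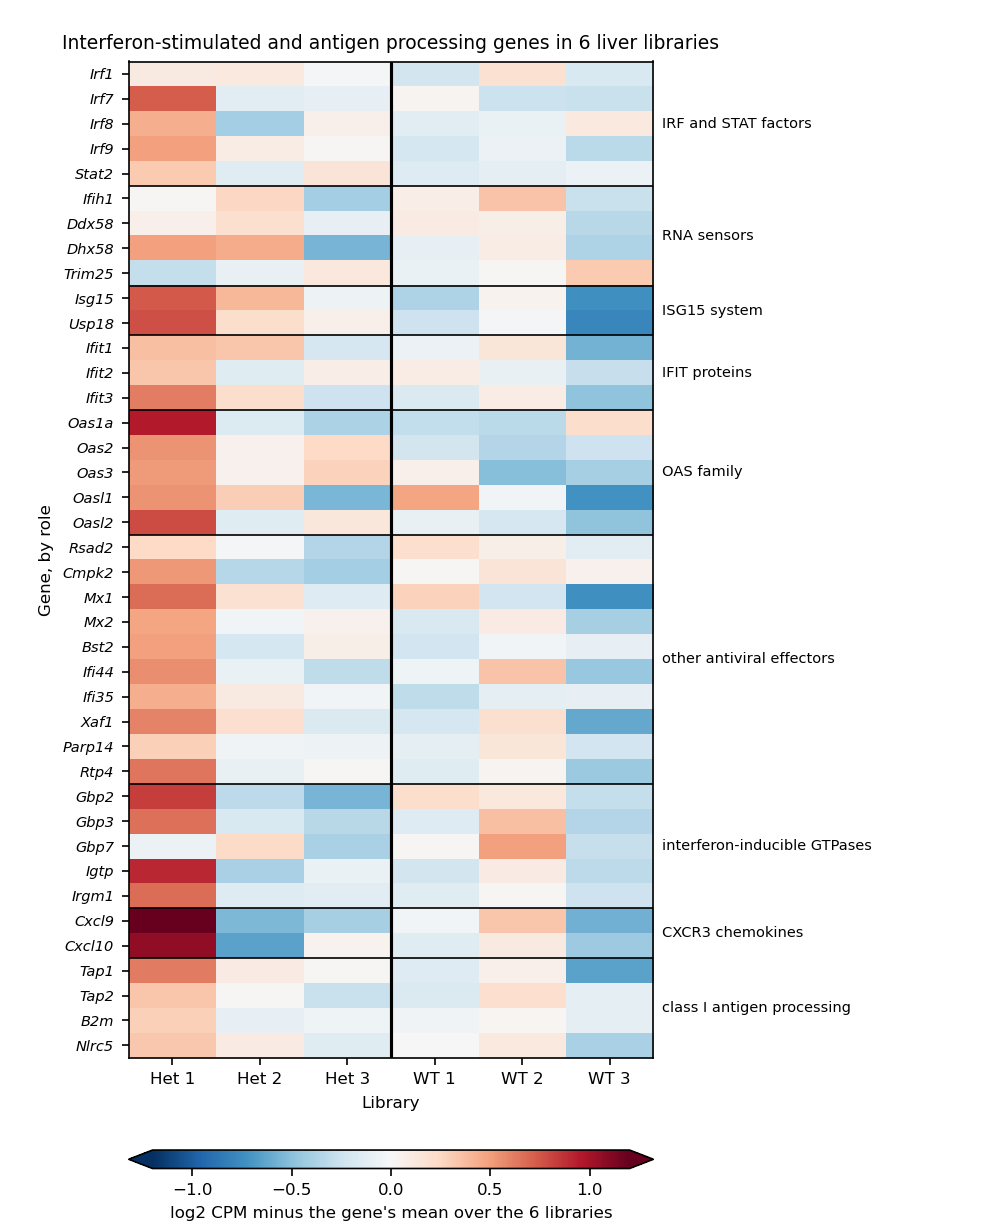
Levels of the 40 genes, by role, in 6 liver libraries (3 Het left of 3 WT), as log2 CPM minus each gene's mean over the libraries, with red higher and blue lower. The column of Het 1 is red in nearly every row, with Trim25 as the only row in which it is the lowest library, and 22 rows have their lowest value in WT 3.

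By edgeR's quasi-likelihood test 0 of the 40 genes passed an adjusted p of 0.05, as did 0% of all 14606 tested genes, and the smallest adjusted p among the 40 was 0.649. DESeq2 and limma-voom also called 0 of the 40, with smallest adjusted p values of 0.25 and 0.657. DESeq2 called 0.447% of all genes to which it gave an adjusted p. At an unadjusted p under 0.05 edgeR gave 7 of the 40 higher in Het, beside 3.39% of all tested genes, and 0 lower, beside 3.77%. At the same level DESeq2 gave 8 higher, beside 3.02% of all tested genes, and limma-voom 6, beside 3.33%. The 8 by DESeq2 included 1 gamma gene, Tap1 (DESeq2 unadjusted p = 0.0328). All 7 by edgeR belong to the type I class, namely Isg15, Usp18, Oas2, Oas3, Oasl2, Irf9 and Ifi35. The genotypes did not overlap in 4 genes, Usp18, Oas2, Irf9 and Ifi35, where every Het library exceeded every WT library, beside 7.15% of all tested genes. The reverse held for 0 genes, beside 6.72%. The count of 7 was 1 without Het 1, 12 without Het 2 and 8 without Het 3. In these fits 2.87%, 4.01% and 3.16% of all tested genes were higher at that level. It was 3 without WT 1, 7 without WT 2 and 2 without WT 3, beside 2.46%, 2.2% and 3.08% of all tested genes. The count fell without Het 1, WT 1 or WT 3, and furthest without Het 1.

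The median log2 fold change of Het over WT was 0.31 over the 40 genes, with 35 of 40 above 0, beside -0.004 and 49.2% over all tested genes. In the type I class it was 0.32 with 23 of 27 above 0. In the gamma class it was 0.14 with 12 of 13 above 0. By edgeR 0 of the 13 were higher at an unadjusted p under 0.05, beside 3.39% of all tested genes. The median of the 40 was 0.05 without Het 1 and 0.20 without WT 3.

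The regulators come first. Irf9, the DNA-binding part of the complex activated by type I interferon, had 49.3, 37.1 and 35.4 CPM in Het 1, Het 2 and Het 3, against 30.2, 33.4 and 28.0 CPM in WT 1, WT 2 and WT 3. The groups did not overlap, and the log2 fold change was 0.41 (SE 0.14, edgeR unadjusted p = 0.022, adjusted p = 0.685). Stat2, its partner in that complex, had 103, 74.6 and 92.3 CPM in Het, against 74.0, 76.9 and 78.9 CPM in WT. Het 2 lay within the WT range, and the log2 fold change was 0.23 (SE 0.13).

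Irf7, the factor that amplifies interferon-alpha production, had 81.3, 45.0 and 45.8 CPM in Het, against 50.2, 41.2 and 40.9 CPM in WT. Only Het 1 lay above the WT range, and the log2 fold change of 0.38 (SE 0.23) was 0.04 without it. Irf8, a factor of myeloid cells that interferon-gamma induces, had 10.5, 5.87 and 8.14 CPM in Het, against 7.14, 7.36 and 8.48 CPM in WT. Het 1 was the highest and Het 2 the lowest library for Irf8.

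Irf1, the gamma-induced factor whose promoter holds the GAS core printed above, had 42.8, 43.0 and 39.4 CPM in Het, against 34.0, 45.0 and 34.9 CPM in WT. Its Het libraries all lay inside the WT range. At a log2 fold change of 0.14 (SE 0.13) it was 1 of 2 regulators, with Irf8, below 0.2.

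The ISG15 system had the largest fold changes of the 40 genes. Isg15, a ubiquitin-like protein attached to many targets after interferon, had 18.1, 14.3 and 10.4 CPM in Het 1, Het 2 and Het 3, against 8.37, 11.2 and 6.50 CPM in WT 1, WT 2 and WT 3. Het 3 lay below WT 2, so the groups overlapped. The mean was 14.2 ± 3.86 CPM in Het and 8.68 ± 2.35 CPM in WT (SD, n = 3 each), a log2 fold change of 0.71 (SE 0.25, edgeR unadjusted p = 0.0213, adjusted p = 0.685). Usp18, the protease that removes ISG15 and restrains the type I receptor, had 12.3, 8.36 and 7.51 CPM in Het, against 6.08, 7.11 and 4.20 CPM in WT. Its groups did not overlap, and the log2 fold change was 0.69 (SE 0.25, edgeR unadjusted p = 0.0232, adjusted p = 0.685). WT 3 was the lowest library for either gene.

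The OAS family comprises synthases of 2-5A, a messenger that activates RNase L, and related proteins. The 5 OAS genes among the 40 had log2 fold changes above 0, and 3 of the 5 had an unadjusted p under 0.05, beside 3.39% of all tested genes higher at that level. Oas2 had the smallest p of the 40 genes, with 9.08, 6.47 and 7.38 CPM in Het, against 5.36, 4.92 and 5.27 CPM in WT. The WT libraries lay close together and below every Het library. Its log2 fold change was 0.56 (SE 0.16, edgeR unadjusted p = 0.00799, adjusted p = 0.649).

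Oas3 had 2.58, 1.87 and 2.19 CPM in Het, against 1.89, 1.27 and 1.36 CPM in WT, a log2 fold change of 0.55 (SE 0.24). Oasl2 had 13.4, 7.04 and 8.57 CPM in Het, against 7.33, 6.78 and 5.57 CPM in WT, a log2 fold change of 0.55 (SE 0.24). In either gene 1 Het library, Het 2, lay just under the highest WT library. Oas1a had 5.73 CPM in Het 1 and at most 2.64 CPM in the other Het libraries, against 2.36 to 3.42 CPM in WT, and its log2 fold change of 0.36 was -0.16 without Het 1. Oas1a has close paralogs in a tandem cluster, so some reads may not be assignable to 1 of them. In Oasl1 the genotypes covered nearly the same range, with 23.4, 19.7 and 10.999 CPM in Het, against 22.3, 15.7 and 9.71 CPM in WT.

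**Figure D2:**
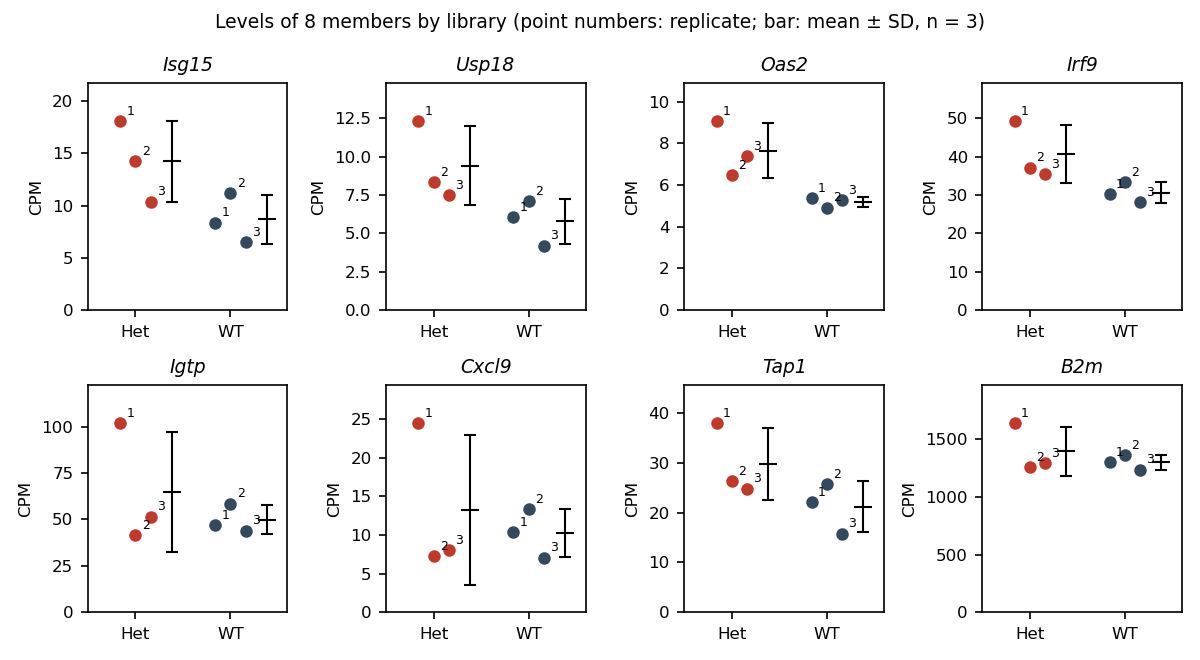
CPM of 8 genes in each library (points, numbered by replicate, Het left of WT, with mean ± SD beside them, n = 3). In Usp18, Oas2 and Irf9 every Het point lies above every WT point, whereas in Igtp and Cxcl9 a single Het library, Het 1 at 102 and 24.5 CPM, stands above the other 5.

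The IFIT proteins, which bind viral RNA, had log2 fold changes of 0.31 for Ifit1, 0.18 for Ifit2 and 0.40 for Ifit3, with SEs of 0.22, 0.18 and 0.23. Ifit3 had 14.7, 11.2 and 8.10 CPM in Het, against 8.53, 10.2 and 6.88 CPM in WT. All of the trio were highest in Het 1 and lowest in WT 3, and in all of them the genotypes overlapped. Ifit3 has a near-identical neighbour, Ifit3b, so some reads may not be assignable to 1 of the pair.

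The RNA sensor genes Ddx58, Ifih1 and Dhx58 were grouped with Trim25, which is not itself a sensor. Of these 4 genes 2 had log2 fold changes above 0, Ddx58 and Dhx58, and 2 below, Ifih1 and Trim25. Among the 4, 1 was highest in Het 1. Ddx58, which encodes RIG-I, had 33.5, 36.8 and 30.0 CPM in Het, against 34.4, 33.8 and 25.4 CPM in WT. Ifih1, which encodes MDA5, had 33.4, 39.1 and 24.8 CPM in Het, against 34.8, 41.9 and 27.4 CPM in WT. Their log2 fold changes were 0.10 (SE 0.14) and -0.10 (SE 0.20), and Het 2 and WT 2 were among the 3 highest libraries for each. Dhx58, which encodes the regulator LGP2 and was the 1 highest in Het 1, had 15.9, 15.3 and 7.66 CPM in Het, against 10.5, 11.99 and 8.70 CPM in WT. Trim25, the ubiquitin ligase that acts on RIG-I, had the opposite order, at 82.2, 94.1 and 109.8 CPM in Het, against 95.2, 101 and 124 CPM in WT. It was the only one of the 40 genes with its lowest level in Het 1.

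The remaining 10 antiviral effectors were all highest in Het 1, beside 22.9% of all tested genes. Ifi35, a protein of the IFP35 family, had 32.2, 25.6 and 23.3 CPM in Het, against 19.3, 22.007 and 22.3 CPM in WT, with no overlap and a log2 fold change of 0.35 (SE 0.14, edgeR unadjusted p = 0.0347, adjusted p = 0.694). An annotated antisense gene covers 16.8% of its exon length, and the sources used here do not say whether the counting used strand. The next widest overlaps by exon length were in Tap2 (14.1%, opposite strand), Rtp4 (13.9%, same strand) and Gbp7 (11.3%, same strand). Bst2, the tetherin that holds budding virus at the cell surface, had 189.6, 117 and 141 CPM in Het, against 115, 132 and 126 CPM in WT.

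Mx1, a dynamin-like GTPase that C57BL/6 mice carry in a non-functional form, had a log2 fold change of 0.43 (SE 0.32). Its paralog Mx2, annotated as a polymorphic pseudogene, had 0.32 (SE 0.20). Xaf1, a partner of the apoptosis inhibitor XIAP, and Rtp4, a chaperone of membrane receptors, had 0.40 (SE 0.25) and 0.39 (SE 0.21). Ifi44 and Parp14, a mono-ADP-ribosyltransferase, had 0.11 and 0.12. Rsad2, the antiviral enzyme viperin, and its neighbour Cmpk2, a mitochondrial nucleotide kinase, had values below 0, at -0.08 (SE 0.18) and -0.09 (SE 0.25).

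Cmpk2 had 7.59, 4.17 and 3.98 CPM in Het, against 5.32, 5.88 and 5.49 CPM in WT. Het 1 lay above all WT libraries and Het 2 and Het 3 below all of them. Without Het 1 its log2 fold change was -0.45 (SE 0.15, edgeR unadjusted p = 0.0204, adjusted p = 0.69). In the same fit Gbp2 was at -0.47 (SE 0.18, edgeR unadjusted p = 0.0358, adjusted p = 0.736), and these were the 2 of the 40 genes lower at an unadjusted p under 0.05, beside 3.41% of all tested genes.

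Het 1 was the highest library in 11 of the 13 gamma genes, beside 22.9% of all tested genes. Igtp, an immunity-related GTPase of the vacuole membrane, had 102, 41.6 and 51.5 CPM in Het 1, Het 2 and Het 3, against 46.8, 58.6 and 44.0 CPM in WT 1, WT 2 and WT 3. Only Het 1 lay above the WT range and Het 2 lay below it, and the log2 fold change of 0.38 (SE 0.30) was -0.10 without Het 1. Igtp shares 162 exon bases with Irgm2 on the same strand. Irgm1, a regulatory GTPase of the same family, had 107, 60.2 and 61.6 CPM in Het, against 60.6, 67.7 and 56.7 CPM in WT.

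The guanylate-binding proteins differed among themselves. Gbp2 had 18.2, 8.21 and 6.93 CPM in Het, against 11.8, 11.2 and 8.40 CPM in WT, and Het 2 and Het 3 were the 2 lowest libraries. Gbp3 had 22.3, 12.4 and 11.2 CPM in Het, against 12.7, 18.2 and 11.1 CPM in WT. Gbp7 did not peak in Het 1, with 12.3, 15.1 and 9.83 CPM in Het, against 13.02, 18.1 and 10.7 CPM in WT. Their log2 fold changes of 0.07, 0.12 and -0.17 had SEs of 0.34, 0.28 and 0.22, and these genes lie in 1 cluster of close paralogs on chromosome 3.

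Cxcl9 and Cxcl10, chemokines that draw T cells through the receptor CXCR3, had the widest spread of the 40 genes. Cxcl9 had 24.5, 7.30 and 8.06 CPM in Het, against 10.4, 13.4 and 7.09 CPM in WT, and its highest library was 3.45 times its lowest. Cxcl10 had 6.58, 2.02 and 3.23 CPM in Het, against 2.84, 3.40 and 2.33 CPM in WT, with a ratio of 3.26. Het 1 was far above the others in either gene, while Het 2 and Het 3 did not exceed the highest WT library. Their log2 fold changes were 0.36 (SE 0.46) and 0.45 (SE 0.39), and -0.43 and -0.12 without Het 1.

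Of the 4 antigen processing genes, Tap1 had the largest log2 fold change and the other 3 were below 0.2. Tap1, a subunit of the peptide transporter that loads class I molecules, had 37.9, 26.3 and 24.8 CPM in Het, against 22.04, 25.7 and 15.8 CPM in WT. Het 3 lay below WT 2 and the log2 fold change was 0.48 (SE 0.22, edgeR unadjusted p = 0.0545, adjusted p = 0.694). Its partner Tap2 had 40.1, 32.1 and 26.4 CPM in Het, against 28.1, 36.6 and 29.4 CPM in WT, a log2 fold change of 0.07 (SE 0.17).

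Nlrc5, the transactivator of class I genes, had 30.5, 26.0 and 22.1 CPM in Het, against 24.3, 26.5 and 18.6 CPM in WT. B2m, the light chain of class I molecules, had 1639, 1256 and 1294 CPM in Het, against 1302, 1359 and 1235 CPM in WT. Only Het 1 exceeded the WT range for Nlrc5 and for B2m, and their log2 fold changes were 0.18 (SE 0.17) and 0.10 (SE 0.14).

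The classes were also fitted without Het 1. In that fit 19 of 27 type I genes still had a log2 fold change above 0, with a median of 0.13, whereas 3 of 13 gamma genes did (Irf1, Tap1 and Nlrc5), with a median of -0.11. The share of all tested genes above 0 in that fit was 48.2%. Of the 40 genes only Oas2 was higher at an unadjusted p under 0.05, at 0.41 (SE 0.15, edgeR unadjusted p = 0.0253, adjusted p = 0.697), beside 2.87% of all tested genes. Isg15, Usp18 and Oas3 were at 0.49 (SE 0.25), 0.44 (SE 0.23) and 0.43 (SE 0.26). The direction turned in 13 genes, of which 4 were type I (Oasl1, Oas1a, Ifi44 and Parp14) and 9 gamma. Leaving out WT 3 instead, 20 of 27 type I and 10 of 13 gamma genes were above 0. The counts were 24 and 12 without Het 2, 26 and 12 without Het 3, 24 and 11 without WT 1, and 24 and 13 without WT 2. In these fits 48.9% to 50.6% of all tested genes were above 0. Among the fits leaving out 1 library, the classes parted in this way only without Het 1. The difference between the classes was not tested.

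**Figure D3:**
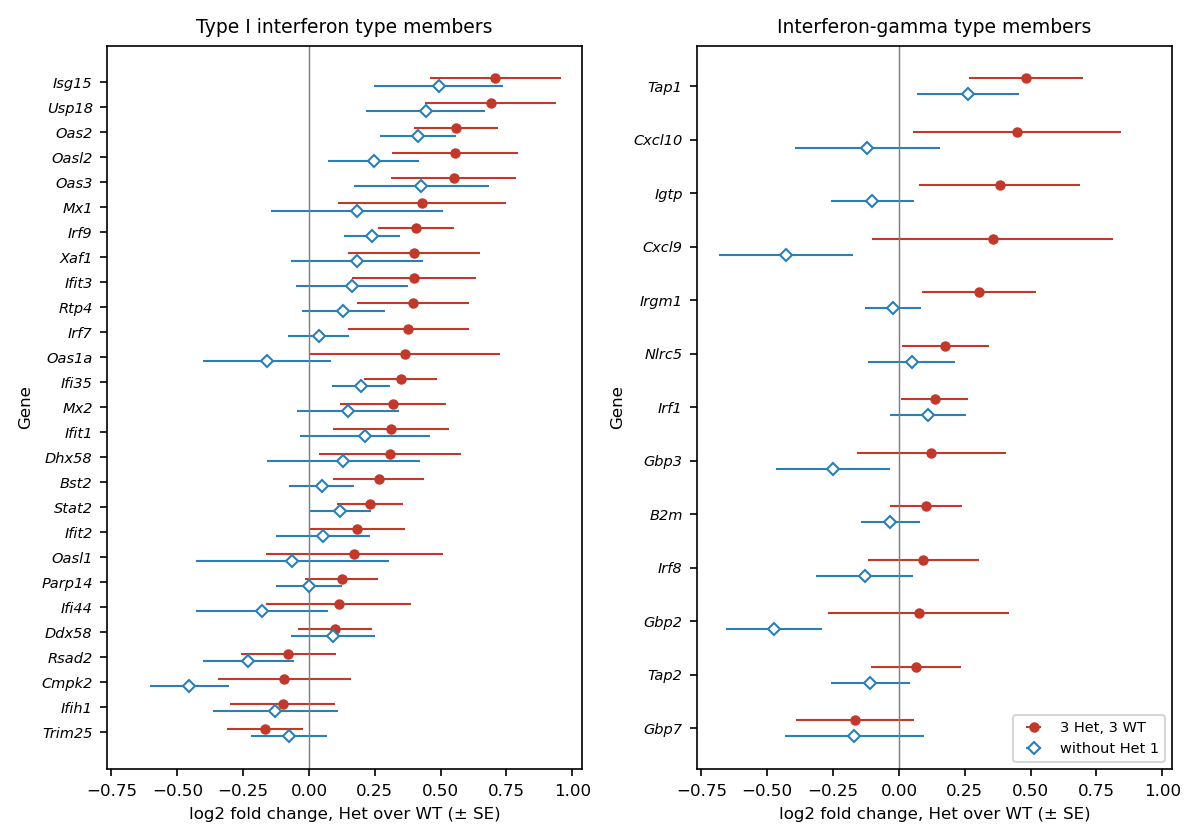
Log2 fold change of Het over WT with its SE for 27 type I genes (left) and 13 gamma genes (right), from all 6 libraries (red points) and without Het 1 (open blue points). Open points of the gamma class lie mostly left of 0, with a median of -0.11, while Isg15, Oas3 and Usp18 stay at or above 0.43.

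The level of a list in a library, taken as the median deviation of its genes from their own means in log2 CPM, shows which libraries carried these differences. The type I level was 0.504, 0.047 and -0.063 in Het 1, Het 2 and Het 3, against -0.096, 0.016 and -0.335 in WT 1, WT 2 and WT 3. The gamma level was 0.623, -0.158 and -0.125 in Het, against -0.145, 0.121 and -0.283 in WT. For either class Het 2 and Het 3 lay within the WT range, except that Het 2 lay just above it for the type I class.

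**Figure D4:**
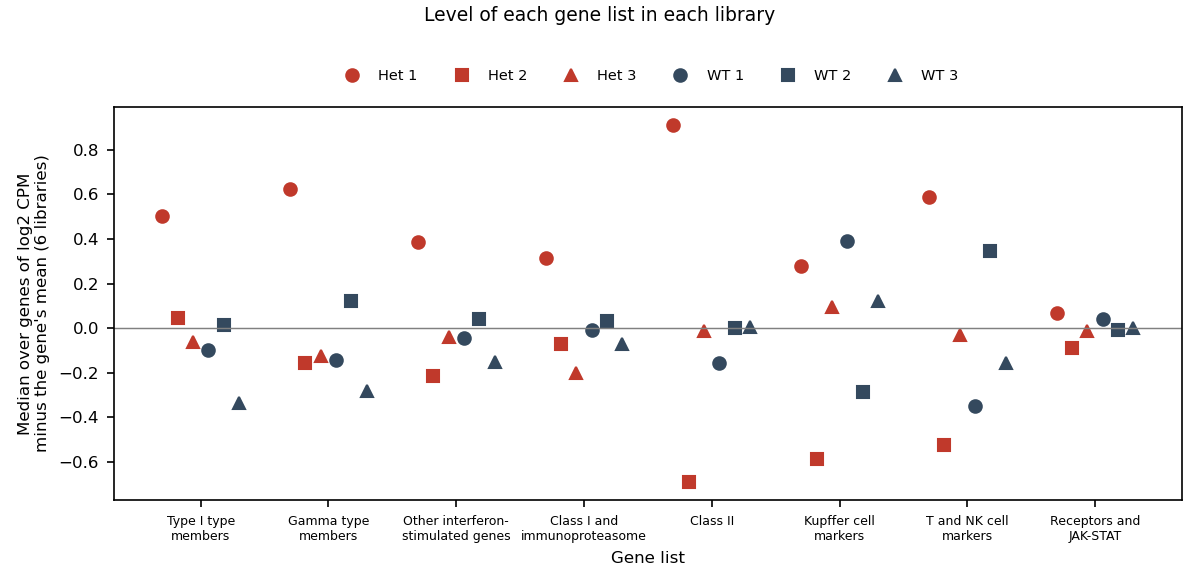
Level of 8 gene lists in each library (median deviation of log2 CPM from gene means, Het in red left of WT in blue, marker shape by replicate). Het 1 is the highest library for each list but the Kupffer cell markers, from 0.067 for receptors and JAK-STAT genes to 0.912 for class II genes.

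Per exon length the members spanned a wide range of levels. B2m had 1623 ± 246 CPM per kilobase in Het and 1510.2 ± 72.2 in WT (SD, n = 3 each). Bst2 followed with 165 ± 41.1 CPM per kilobase in Het and 138 ± 9.73 in WT, and Igtp with 32.1 ± 15.97 in Het and 24.6 ± 3.82 in WT. At the low end were Mx1, with 0.528 ± 0.154 CPM per kilobase in Het and 0.387 ± 0.134 in WT, and Oas3, with 0.313 ± 0.05 in Het and 0.213 ± 0.0471 in WT. Lengths are exon unions from GENCODE M21, whose gene positions equal those of the count table for all 40 genes.

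Upstream of these genes stand the receptors and kinases, in which Het 1 was the highest library for 5 of 16 genes (31.2%), beside 22.9% of all tested genes. Of 17 listed receptor and JAK-STAT genes 16 were tested, 8 had a log2 fold change above 0 and 8 below, and the median was -0.003. At an unadjusted p under 0.05, 1 of the 16 was higher, beside 3.39% of all tested genes, and 0 were lower, beside 3.77%. Ifnar1 had 33.3, 34.7 and 34.6 CPM in Het, against 34.7, 36.2 and 35.1 CPM in WT. Ifnar2, Ifngr1 and Ifngr2, the other receptor chains, had log2 fold changes of 0.02, -0.10 and 0.14 with SEs of 0.12, 0.15 and 0.11.

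Socs3, a feedback inhibitor of cytokine receptors, was the 1 gene of the list at an unadjusted p under 0.05 (log2 fold change 1.03, SE 0.42, edgeR unadjusted p = 0.0406, adjusted p = 0.694), with 7.68, 10.7 and 23.8 CPM in Het, against 4.84, 6.17 and 9.82 CPM in WT. Its high library was Het 3, not Het 1. Pias1, a SUMO ligase, and Jak2 had log2 fold changes of -0.17 (SE 0.09) and -0.22 (SE 0.12).

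Of the interferons, Ifng had 3 counts in Het 1, 0 in Het 2 and Het 3, 0 in WT 1 and WT 2, and 1 in WT 3. A count of 0 allows up to 3 counts at this depth, so no difference was detectable. The other 8 listed interferon genes were not analysed here. Of 15 sensing adaptors 8 were above 0 and 7 below, with a median of 0.00. Ticam1, the adaptor TRIF of Toll-like receptor 3, had 19.5 ± 0.852 CPM in Het and 14.1 ± 1.41 CPM in WT (SD, n = 3 each), with no overlap and a log2 fold change of 0.47 (SE 0.11, edgeR unadjusted p = 0.00275, adjusted p = 0.6). Ikbke, a kinase of IRF3 and IRF7, and Aim2, a DNA sensor, had 0.42 (SE 0.22) and -0.29 (SE 0.25).

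A wider list of 45 measured interferon-stimulated genes had a median of 0.14 for the log2 fold change, with 33 above 0 and 12 below. At an edgeR unadjusted p under 0.05 there were 0 of the 45, beside 3.39% of all tested genes higher and 3.77% lower. Het 1 was the highest library in 32 of the 45 (71.1%), beside 22.9% of all tested genes. Oas1b, annotated as a polymorphic pseudogene, Adar, an RNA-editing enzyme, and Ifi27, a mitochondrial protein, had the smallest p values. Their log2 fold changes were 0.51 (SE 0.23), 0.30 (SE 0.14) and 0.37 (SE 0.17). Class I and immunoproteasome genes had a median of 0.03, with 12 above 0 and 8 below. Het 1 was highest in 15 of these 20 (75%), beside 22.9% of all tested genes. At an unadjusted p under 0.05, 2 of the 20 were higher, beside 3.39% of all tested genes, and 1 lower, beside 3.77%. Calr and Pdia3, chaperones of the endoplasmic reticulum that also assemble class I molecules, had log2 fold changes of 0.42 (SE 0.11, edgeR adjusted p 0.648) and 0.29 (SE 0.10, edgeR adjusted p 0.685). Calr was highest in Het 1 and Pdia3 in Het 3, and their log2 fold changes without Het 1 were 0.36 and 0.30. Erap1, which trims peptides, was at -0.21 (SE 0.09). Every Het library exceeded every WT library in 2 of the 20, Calr and Pdia3, beside 7.15% of all tested genes. The reverse held for 1, Erap1, beside 6.72%.

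Class II genes, which dendritic cells, B cells and macrophages express and interferon-gamma induces, also differed among the Het libraries. All 8 were highest in Het 1, beside 22.9% of all tested genes, and 7 of 8 were lowest in Het 2, beside 15.7%. The list's level was 0.912, -0.690 and -0.015 in Het 1, Het 2 and Het 3, against -0.156, 0.000 and 0.006 in WT 1, WT 2 and WT 3. Ciita, the class II transactivator, had a log2 fold change of 0.40 (SE 0.33), and H2-Eb1 and H2-Ab1 had 0.35 (SE 0.39) and 0.34 (SE 0.40). None of these 3 had an unadjusted p under 0.05, and H2-Eb1 and H2-Ab1 were at -0.34 and -0.36 without Het 1.

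Markers of other immune cells varied between libraries in other ways. The 11 Kupffer cell and macrophage markers summed to 781, 416 and 681 CPM in Het, against 856, 548 and 711 CPM in WT, highest in WT 1 and lowest in Het 2, with 2 of 11 above 0 in log2 fold change. Monocyte and neutrophil markers summed to 8.25, 4.09 and 5.41 CPM in Het, against 6.96, 5.82 and 6.10 CPM in WT, again highest in Het 1. B lineage markers summed to 38.2, 29.98 and 23.3 CPM in Het, against 76.1, 42.9 and 59.4 CPM in WT, and dendritic cell markers to 12.3, 11.9 and 12.7 CPM in Het, against 14.4, 13.7 and 12.8 CPM in WT, with 0 of 7 tested genes above 0 in either list. The part of these cell types in the levels of the 40 genes was not tested. Camp, a neutrophil granule gene, had 0 counts in Het 3 and Ngp, another, 0 in WT 2, while no T cell, NK cell or Kupffer cell marker was at 0. Hepatocyte markers identify the tissue, with Alb, the albumin gene, at 144110, 118360 and 121050 CPM in Het, against 109410, 99992 and 117350 CPM in WT.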

How the data were processed

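RNA from 3 Het and 3 WT liver samples was sequenced from polyadenylated, strand-specific libraries, per the labels' protocols. The deposited values used here are raw read counts per gene. The submitters' processing notes name the aligner STAR 2.5.3a, the counter HTSeq 0.6.1p1, cutadapt 1.10, bcl2fastq 2.17.1.14, DESeq2 1.16.1 and the build mm10. The sources used here give neither the annotation release nor the strand setting of the counting. A further 12 normalized columns and the authors' deposited comparison table were not used.

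The members and lists were chosen with earlier results of these data known. Named genes are Ptprd, the 40 members and, of each pathway list, the 3 with the smallest p plus the 4 interferon receptor chains. A further gene of the rule is not reported here. Dbp and the cell markers were added to describe libraries. Genes passing filterByExpr (14606, holding 99.955% of the counts) were fitted with edgeR 4.0.16 in R 4.3.3, by TMM scaling and a two-sided quasi-likelihood test on genotype alone, and p-values were adjusted by Benjamini-Hochberg across these genes, called at 0.05. The SE is the absolute log2 fold change divided by the root of the F statistic. The biological coefficient of variation was 18.5%. An exact permutation test of 3 against 3 libraries cannot go below p = 0.1, so single genes carry the model's p. List levels used log2 CPM with a prior count of 2. DESeq2 1.42.0 and limma-voom 3.58.1, other scalings and filters, and fits leaving out libraries were alternatives. The fit was tested on simulated data. Intervals and counts of 0 cover counting error only.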

Additional observations from a re-analysis of the deposited data

How the results depend on the processing

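With 3 libraries a genotype, none of the 40 genes passed the adjusted threshold in any fit run, and direction was read from unadjusted values. Over all genes edgeR called 0 (1045 at an unadjusted p under 0.05), limma-voom 0 (1071), DESeq2 64 and edgeR without a filter on low counts 73, and leaving out 1 library in turn gave 0 to 1. Of the 40 genes, 7 were higher at an unadjusted p under 0.05, against 11 without the filter, 24 without both Het 2 and Het 3, the libraries high in Dbp, and 1 to 12 leaving out 1 library. The shares of all genes higher at that level were 3.39%, 2.61% without the filter, 5.35% without both, 2.87% without Het 1 (1 of the 40) and 4.01% without Het 2 (12 of the 40). Without both Het 2 and Het 3, Het 1 is the only Het library left and is assumed to vary like WT. The median log2 fold changes in that fit were 0.62 (all 40), 0.61 (type I) and 0.67 (gamma). Het 1 was already the highest library in 35 of the 40 genes. The larger count and medians of that fit therefore describe Het 1 alone, and they cannot show a difference between genotypes or a part of Dbp in it. Of 488 single-gene values under other settings 5 turned direction, namely Gbp2 by limma-voom (-0.13) and with the replicate block (-0.031), and Rsad2 (0.19), Cmpk2 (0.45) and Ifngr1 (0.049) without both Het 2 and Het 3. Leaving out 1 library turned 30 of 366 values, with these ranges of log2 fold change: Cxcl9 -0.43 to 0.65, Cxcl10 -0.12 to 0.76, Gbp2 -0.47 to 0.33, Gbp3 -0.25 to 0.37, Gbp7 -0.33 to 0.074, Igtp -0.10 to 0.62, Irgm1 -0.023 to 0.45, Irf8 -0.13 to 0.29, Tap2 -0.11 to 0.20, B2m -0.033 to 0.18, Oas1a -0.16 to 0.61, Oasl1 -0.080 to 0.50, Ifi44 -0.18 to 0.34, Parp14 -2e-04 to 0.24, Cmpk2 -0.45 to 0.077, Rsad2 -0.23 to 0.067, Ddx58 -0.026 to 0.17, Ifih1 -0.25 to 0.065, Ifngr1 -0.19 to 0.027, Ifnar2 -0.12 to 0.10, H2-Ab1 -0.36 to 0.67 and H2-Eb1 -0.34 to 0.66. With the replicate number as a block, 8 of the 40 were higher at an unadjusted p under 0.05, beside 3.24% of all tested genes. The medians in that fit were 0.25 (all 40), 0.32 (type I) and 0.15 (gamma). Libraries of the same number had correlations of -0.068, 0.116 and 0.152 in their deviations from the genotype mean. Not every library correlated best with its own number. Deviations from a mean of 3 libraries depend on one another, so these values cannot show whether the numbers pair the samples. The causes were not tested.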

Other observations

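Genes outside the 40 were picked here as examples after their values were seen, so they cannot show how widely the level of Het 1 extended. Among GTPases that interferon-gamma induces, Tgtp1 had 3.29, 0.596 and 0.51 CPM in Het 1, Het 2 and Het 3, against 0.347, 1.17 and 0.401 CPM in WT 1, WT 2 and WT 3. Gbp10 had 9.05, 2.85 and 2.47 CPM in Het, against 2.15, 4.88 and 1.95 CPM in WT. Het 1 was the highest and WT 2 the next highest library for either gene. The same order was seen in Ifi47, with 39.8, 15.2 and 13.4 CPM in Het, against 14.7, 28.5 and 21.6 CPM in WT, and in Psmb8, an immunoproteasome subunit, with 57.96, 32.6 and 29.3 CPM in Het, against 30.6, 42.4 and 38.4 CPM in WT. The edgeR log2 fold changes of these 4 genes were 1.12 (SE 0.79), 0.65 (SE 0.55), 0.07 (SE 0.42) and 0.10 (SE 0.25), none at an unadjusted p under 0.05.

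Other interferon-induced genes did not peak in Het 1. Iigp1, another GTPase of the same family, had 309.9, 213 and 276 CPM in Het, against 207, 314 and 274 CPM in WT, highest in WT 2 with Het 1 next. Ddx60, a helicase, had 6.69, 6.96 and 4.13 CPM in Het, against 6.36, 8.36 and 3.83 CPM in WT. Eif2ak2, the RNA-activated kinase PKR, had 18.4, 23.3 and 17.9 CPM in Het, against 23.3, 21.3 and 16.7 CPM in WT. In Ddx60 the order of the libraries was close to that of Ifih1, with WT 2 and Het 2 the highest and Het 3 and WT 3 the lowest.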
